A study of Homo sapiens with 8 samples.

Results

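The genes described here are 8 genes of the HOXA cluster (HOXA3, HOXA4, HOXA5, HOXA6, HOXA7, HOXA9, HOXA10 and HOXA11) together with MEIS1 and PBX3, which encode proteins that bind DNA beside HOX proteins. They were taken by gene symbol, and all 10 were found among the 16726 genes listed for each cell line. Poly(A) RNA was sequenced from MM6 (MonoMac 6) and NB4, both established human acute myeloid leukaemia lines, in 8 libraries of 4 groups with 2 libraries each. The groups were MM6 cells with shM14 (labelled shM14-#2, a hairpin against METTL14), MM6 cells with shNS (a scrambled, non-specific hairpin), NB4 cells with shM14 and NB4 cells with shNS. All 4 groups had been transduced with pLKO.1 lentivirus and kept in 0.5 µg/mL puromycin for 2 passages. A single METTL14 hairpin was used, so effects of that hairpin and of lower METTL14 cannot be told apart.

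HOXA genes lie side by side on chromosome 7 and encode homeodomain transcription factors that are active in blood stem and progenitor cells and are turned down as the cells mature. HOXA9 and its partners MEIS1 and PBX3 are known for their high activity in leukaemias with a KMT2A fusion. MM6, a monocytic line, is known to carry such a fusion (KMT2A::MLLT3), whereas NB4, a promyelocytic line, carries PML::RARA. METTL14 works with METTL3 as the enzyme pair that places the m6A mark (N6-methyladenosine) on transcripts. The comparison asks how RNA levels in these cells differ when METTL14 is knocked down.

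The members share the homeodomain, whose recognition helix reads the DNA. The 39 coding bases around the most conserved part of that helix are shown for HOXA10, on which the results turn, for its neighbour HOXA11, and for MEIS1 and PBX3. They were read from the GENCODE transcripts on GRCh38, 5′ to 3′, and capitals mark the bases that differ from HOXA10.
HOXA10: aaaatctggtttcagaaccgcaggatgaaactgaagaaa
HOXA11: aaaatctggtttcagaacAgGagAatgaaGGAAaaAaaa
MEIS1: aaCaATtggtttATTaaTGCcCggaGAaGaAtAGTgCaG
PBX3: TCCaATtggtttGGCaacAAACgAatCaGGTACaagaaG

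HOXA11 differed from HOXA10 at 8 of these bases. MEIS1 and PBX3, which belong to the TALE class of homeodomain proteins, differed at 19 and 20. The HOXA10 stretch lies at chr7:27171953-27171991 and that of HOXA11 at chr7:27182844-27182882, both on the minus strand and in exon 2 of 2. That of PBX3 lies at chr9:125960687-125960725 on the plus strand, in exon 7 of 10, and that of MEIS1, on chromosome 2, is split by an intron. Close sequence raises the question whether reads could be shared between members. The longest exact run that a transcript of a member shared with one of another HOX or TALE gene was 41 bases, between HOXA6 and HOXA7, followed by 40 bases between MEIS1 and MEIS2. None reached the read length of 50 bp. Gene models do overlap, however. The span of HOXA3 in RefSeq covers all of HOXA4, HOXA5 and HOXA6 on the same strand, and the antisense gene HOXA10-AS overlaps HOXA10 by 1311 bases. The strand used for counting is not given, so the values of HOXA3 to HOXA7 and of HOXA10 are less certain than the others.

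Depth was 23272126 to 28814911 reads per library over the listed genes, and the members held 5344 to 8218 of these in MM6 and 979 to 1762 in NB4. Levels are in RPKM, reads scaled to the length of the gene model and to the reads of the library. METTL14 had 6.54 and 6.55 RPKM in MM6 shM14 against 12.5 and 13.4 RPKM in MM6 shNS, and 8.35 and 8.35 RPKM in NB4 shM14 against 14.1 and 12.5 RPKM in NB4 shNS. The mean was 49.4% below shNS in MM6 and 37.1% below it in NB4. Replicate libraries differed more in MM6 (SD of 0.38 and 0.35 for shM14 and shNS, in log2 over genes) than in NB4 (0.13 and 0.15), and whether replicates came from separate cultures is not stated. P-values therefore measure only the spread between these libraries. All the marker genes of promyelocytes were listed in both lines, with ELANE and AZU1 highest in MM6 and MPO in NB4. In NB4 ELANE differed by replicate number. It had 0.0387 RPKM in shM14 and 0.0462 RPKM in shNS of replicate 1, against 6.45 and 6.83 RPKM in replicate 2. Of 10 monocyte markers FCN1 was below 0.1 RPKM in MM6 shNS, and VCAN and S100A12 were below 0.1 RPKM in both NB4 groups. NB4 also had the T cell gene CD3D at 45.0 to 60.6 RPKM. Both lines are labelled as acute monocytic leukemia.

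The lines differed in which members they expressed with the control hairpin. In MM6 shNS the order of mean levels was PBX3 (65.6 ± 8.26 RPKM), HOXA10 (9.82 ± 0.220), MEIS1 (8.73 ± 0.179), HOXA5 (4.78 ± 1.62), HOXA9 (3.81 ± 1.25), HOXA11 (3.75 ± 0.361), HOXA6 (2.34 ± 0.395), HOXA3 (1.76 ± 0.249), HOXA7 (1.44 ± 0.246) and HOXA4 (0.974 ± 0.00409; SD, n = 2 each). In 3 cases neighbours in this order had overlapping libraries, namely HOXA5 and HOXA9, HOXA9 and HOXA11, and HOXA3 and HOXA7. In NB4 shNS the order was HOXA10 (10.7 ± 0.423 RPKM), HOXA11 (4.62 ± 0.344), PBX3 (2.33 ± 0.0101), HOXA4 (1.84 ± 0.295), HOXA5 (0.611 ± 0.172), HOXA3 (0.388 ± 0.115), MEIS1 (0.333 ± 0.0533), HOXA9 (0.106 ± 0.0551), HOXA6 (0.102 ± 0.0824) and HOXA7 (0.0490 ± 0.0206; SD, n = 2 each). There the libraries of HOXA3 and MEIS1 overlapped, as did those of HOXA9, HOXA6 and HOXA7.

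**Figure D1:**
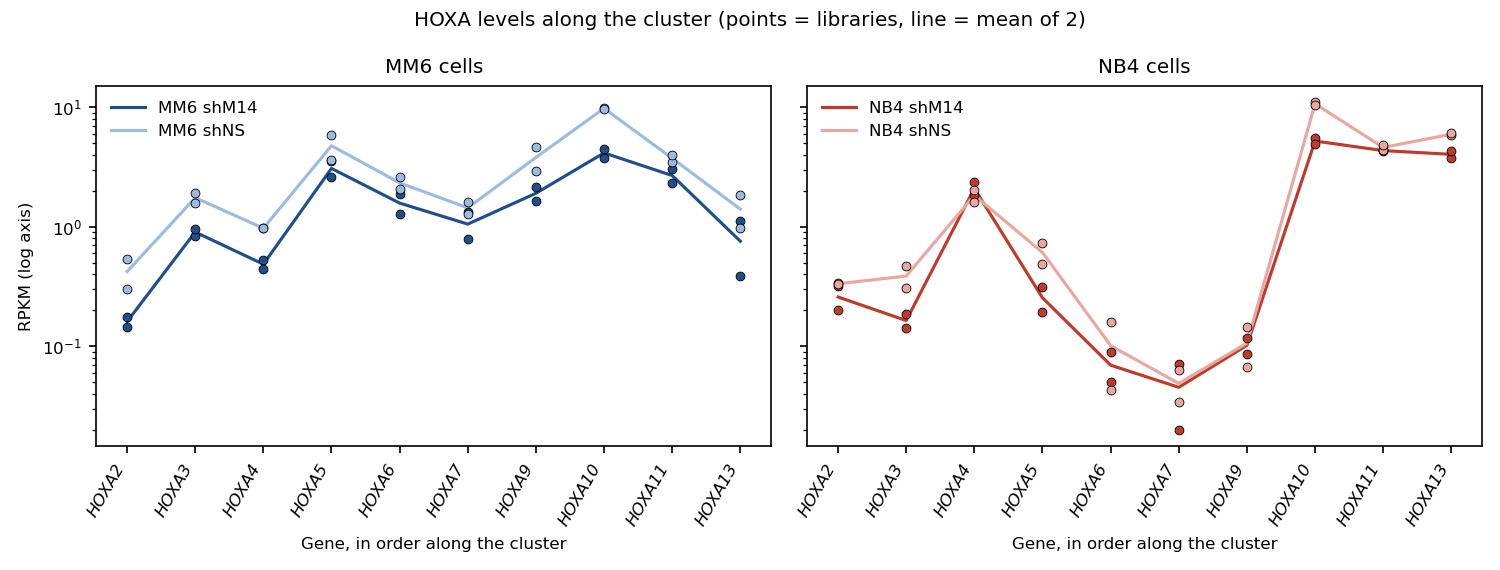
RPKM on a log axis for the protein-coding genes from HOXA2 to HOXA13 in their order along the cluster, in MM6 (left panel) and NB4 (right panel), with points for the 2 libraries of a group and lines through the group means. In MM6 shNS the means from HOXA3 to HOXA11 lie between 0.974 and 9.82 RPKM, whereas NB4 has HOXA10, HOXA11 and HOXA13 high and HOXA6, HOXA7 and HOXA9 near 0.1 RPKM or below.

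PBX3, which steadies HOX proteins on DNA, had 59.7 and 71.4 RPKM in MM6 shNS against 2.34 and 2.33 RPKM in NB4 shNS. MEIS1, which joins HOX and PBX proteins in complexes that drive transcription, had 8.60 and 8.85 RPKM in MM6 shNS against 0.295 and 0.371 RPKM in NB4 shNS. HOXA9, the HOX gene most closely tied to KMT2A-rearranged leukaemia, had 4.69 and 2.93 RPKM in MM6 shNS against 0.145 and 0.0675 RPKM in NB4 shNS. For these 3 genes each MM6 library stood far above each NB4 library, and the ratios of the means were 28.1 for PBX3, 26.2 for MEIS1 and 35.8 for HOXA9. The NB4 value of HOXA9 rests on 7 and 4 reads.

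Between the controls of the lines, MM6 minus NB4, 8 of the 10 members passed the threshold of 0.05 on the adjusted p of limma on log2(RPKM + 1), against a background of 71.1% of 12450 genes tested (34.3% higher, 36.8% lower). So many genes differed between the lines that 8 of 10 is near the share of all genes. PBX3 (log2 difference 4.31, SE 0.12, adjusted p = 2.1e-05), MEIS1 (2.87, SE 0.09), HOXA9 (2.10, SE 0.19), HOXA5 (1.82, SE 0.21), HOXA6 (1.60, SE 0.12), HOXA7 (1.22, SE 0.11) and HOXA3 (0.99, SE 0.11) were higher in MM6, and HOXA4 was lower (-0.52, SE 0.11, adjusted p = 0.0082). HOXA3, HOXA5, HOXA6, HOXA7, HOXA9 and MEIS1 passed the filter on low values, 1 RPKM in at least 2 libraries, only through MM6, and HOXA4 only through NB4, so their differences had to be found. HOXA10 (-0.11, 95% interval -0.34 to 0.11, adjusted p = 0.28) and HOXA11 (-0.24, interval -0.51 to 0.02, adjusted p = 0.086) did not pass. HOXA10 had 9.98 and 9.67 RPKM in MM6 shNS against 11.0 and 10.4 RPKM in NB4 shNS, the member whose levels lay closest together in the lines. HOXA5, HOXA6 and HOXA7, middle genes of the cluster, had 5.93 and 3.64, 2.62 and 2.06, and 1.27 and 1.62 RPKM in MM6 shNS. In NB4 shNS HOXA5 had 0.490 and 0.733 RPKM, and HOXA6 and HOXA7 had 1 to 3 reads in each library, so that no fold is given for them. Each line is a single line, so a difference between MM6 and NB4 is one between these cultures and not between leukaemia types.

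Along the cluster, the lines used its middle and its HOXA10 end to different extents. Of the summed RPKM of the 8 HOXA members, HOXA5, HOXA6, HOXA7 and HOXA9 held 47.0% and 38.7% in the MM6 shNS libraries against 4.72% and 4.70% in the NB4 shNS libraries. HOXA10 and HOXA11 together held 43.6% and 51.7% in MM6 shNS against 84.6% and 81.8% in NB4 shNS. HOXA13, the last protein-coding gene of the cluster, had 0.985 and 1.83 RPKM in MM6 shNS against 5.83 and 6.10 RPKM in NB4 shNS. HOTTIP, a long noncoding RNA beyond HOXA13, had 0.270 and 0.321 RPKM in MM6 shNS against 1.89 and 1.82 RPKM in NB4 shNS, and both genes were lower in MM6 in the same fit (log2 difference -1.55, adjusted p = 0.0011, and -1.14, adjusted p = 0.00026), HOTTIP having passed the filter only through NB4.

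**Figure D2:**
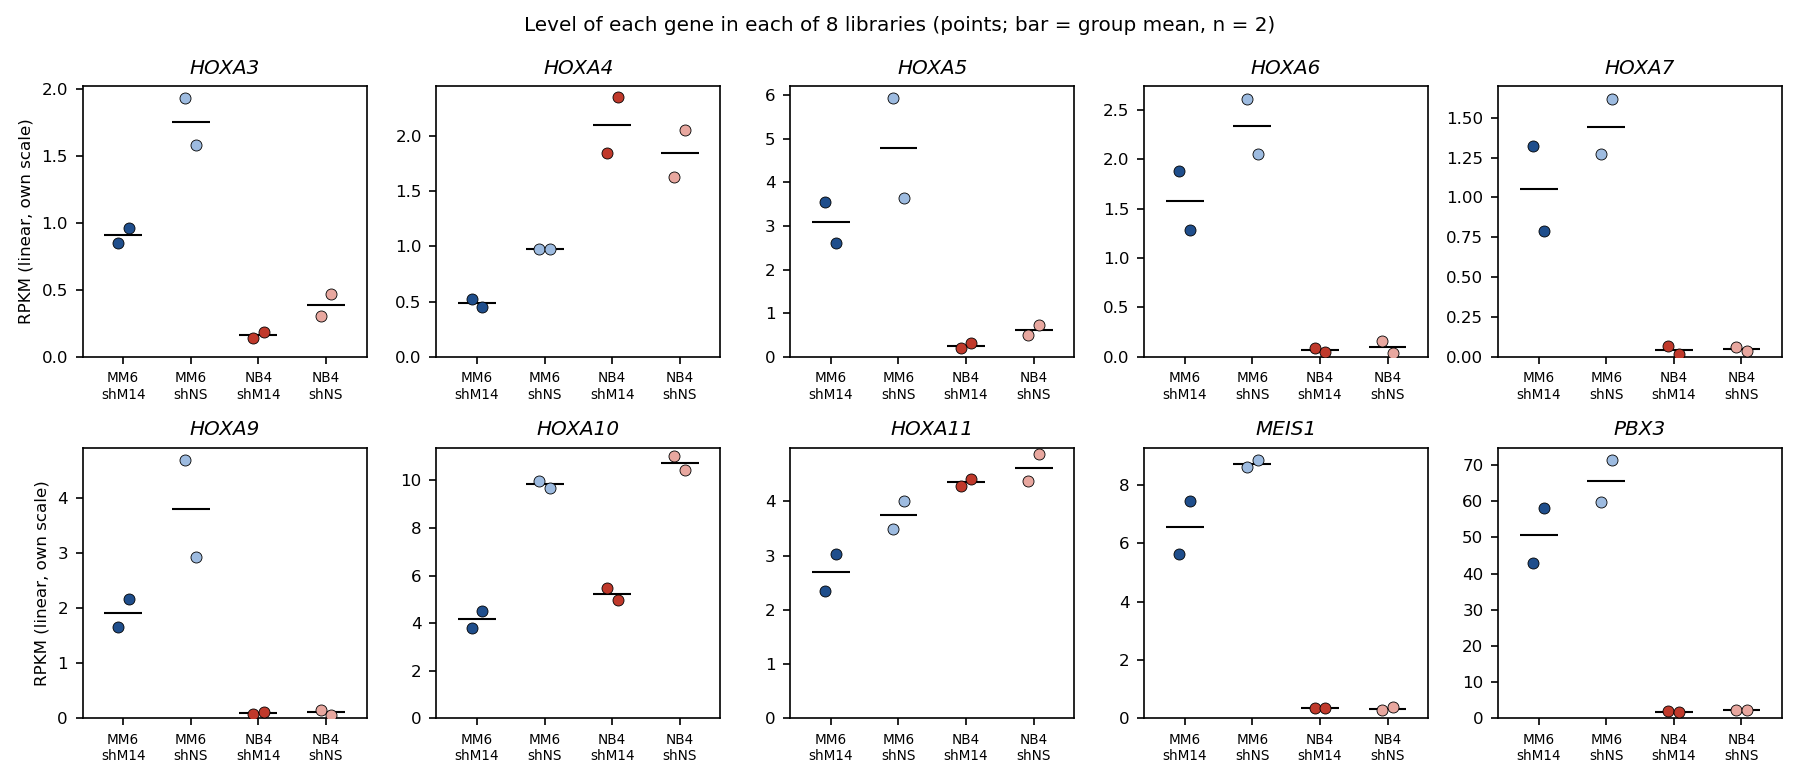
RPKM (linear axis from 0, a scale of its own in each panel) of the 10 members in each of the 8 libraries, as points, with a bar at the mean of the 2 libraries of a group. HOXA10 stands at 3.79 to 5.49 RPKM in the 4 shM14 libraries and at 9.67 to 11.0 RPKM in the 4 shNS libraries, and MEIS1, PBX3 and HOXA9 are high in MM6 alone.

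Of the 10 members HOXA10 had the largest change in log2(RPKM + 1) with the METTL14 hairpin over both lines, a scale that understates changes of genes near 1 RPKM or below. It encodes a homeodomain factor that holds back the maturation of myeloid progenitors. In MM6 it had 3.79 and 4.53 RPKM with shM14 against 9.98 and 9.67 RPKM with shNS. In NB4 it had 5.49 and 4.97 RPKM with shM14 against 11.0 and 10.4 RPKM with shNS. No shM14 library reached the lowest shNS library of either line. The means were 57.6% below shNS in MM6 (4.16 ± 0.520 against 9.82 ± 0.220 RPKM) and 51.2% below it in NB4 (5.23 ± 0.371 against 10.7 ± 0.423 RPKM; SD, n = 2 each), on 336 to 957 reads per library.

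Over both lines HOXA10 fell (log2 change -0.99, SE 0.08, adjusted p = 0.0011, limma on 8 libraries). It also fell within NB4 (-0.91, SE 0.06, adjusted p = 0.00078), whereas within MM6 its change of -1.07 (SE 0.14, 95% interval -1.43 to -0.72) did not pass (adjusted p = 0.078). The MM6 change minus the NB4 change was -0.16 (95% interval -0.49 to 0.17, adjusted p = 0.60). In the authors' deposited table HOXA10 was called in both lines, with log2 fold changes of -1.21 in MM6 (adjusted p = 0.00017) and -1.00 in NB4 (adjusted p = 8.5e-34). There HOXA3 (-1.23) and HOXA5 (-1.26) had larger log2 fold changes in NB4 than HOXA10, both on few reads. The share of HOXA10 in the summed RPKM of the 8 HOXA members was 23.8% and 28.6% in MM6 shM14 against 32.3% and 36.5% in MM6 shNS. In NB4 it was 45.0% and 40.0% with shM14 against 60.6% and 55.8% with shNS. In bulk libraries fewer cells that express a gene and less RNA per cell cannot be told apart.

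**Figure D3:**
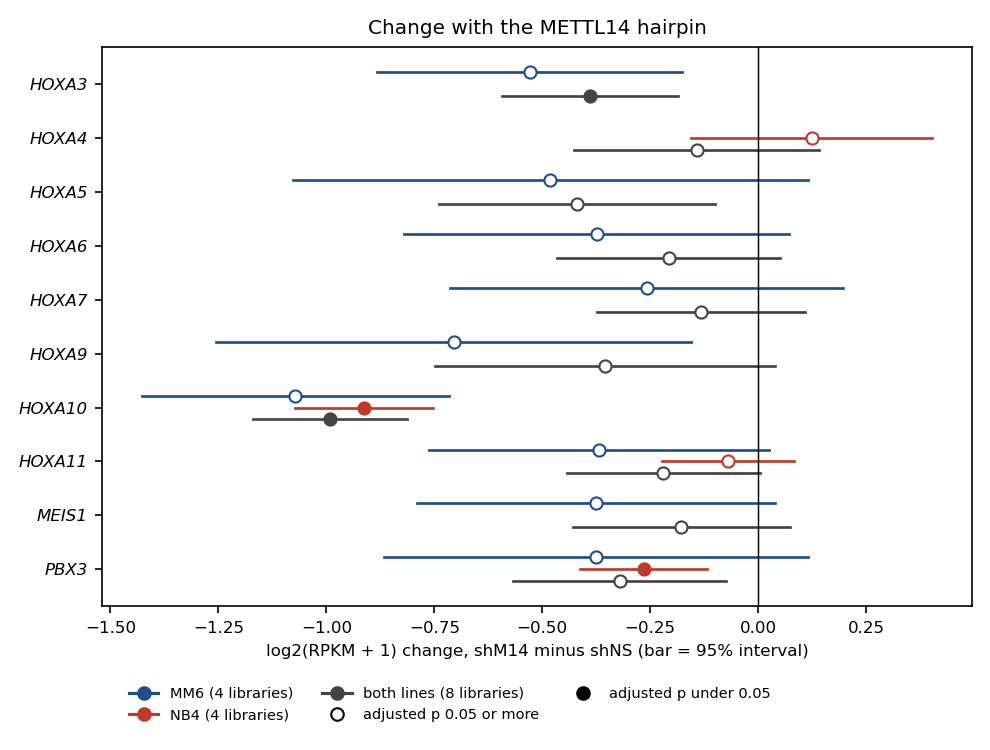
Change in log2(RPKM + 1), shM14 minus shNS, for each member that could be tested, with 95% intervals, in MM6 (blue), NB4 (red) and both lines (grey), where filled points have an adjusted p under 0.05. HOXA10 lies near -1 in all 3 fits, HOXA3 is filled in the fit of both lines and PBX3 in NB4.

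Within NB4 only HOXA4, HOXA10, HOXA11 and PBX3 passed the filter on low values, and 2 of these 4, HOXA10 and PBX3, were lower with shM14 and none higher. Of all genes tested in NB4 47.4% changed and 25.2% were lower, and with 4 members tested a share of 2 is near this background. Beside HOXA10, PBX3 fell in NB4, with 1.89 and 1.66 RPKM in shM14 against 2.34 and 2.33 RPKM in shNS (log2 change -0.27, SE 0.06, adjusted p = 0.017). That call held in 8 of 13 alternative settings (log2 change -0.39 to -0.21), and the highest adjusted p among the settings was 0.31. It was lost without shM14 replicate 2, without shNS replicate 1 or without shNS replicate 2, and also with all 8 libraries fitted together. HOXA11, a gene best known from limb and uterus development, had 4.28 and 4.42 RPKM in shM14 against 4.38 and 4.87 RPKM in shNS, and its libraries overlapped (-0.07, 95% interval -0.22 to 0.08, adjusted p = 0.38). HOXA4 had 1.84 and 2.35 RPKM in shM14 against 1.63 and 2.05 RPKM in shNS, also with overlap (0.12, interval -0.15 to 0.40, adjusted p = 0.39).

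The other 6 members were below the filter in NB4 and were not tested there. Of these, HOXA3, which patterns the neck and throat region in the embryo, had 0.144 and 0.185 RPKM in shM14 against 0.307 and 0.469 RPKM in shNS. HOXA5, a gene that promotes myeloid over erythroid fate, had 0.194 and 0.316 RPKM in shM14 against 0.490 and 0.733 RPKM in shNS. For both genes the shM14 libraries lay below the shNS libraries, on 14 and 16 reads for HOXA3 in shM14 against 25 and 47 in shNS, and on 9 and 13 for HOXA5 in shM14 against 19 and 35 in shNS. The authors' deposited table calls both lower in NB4 (log2 fold change -1.23, adjusted p = 0.0019 for HOXA3, and -1.26, adjusted p = 0.0073 for HOXA5), beside HOXA10 and PBX3, where it calls 43.6% of all genes. Without the filter, limma gave an adjusted p of 0.057 for HOXA3 and 0.0502 for HOXA5, and voom on the recovered reads, a setting added after these values were seen, gave an adjusted p of 0.012 for HOXA3 and 0.022 for HOXA5. MEIS1 overlapped between the NB4 groups, with 0.337 and 0.367 RPKM in shM14 against 0.295 and 0.371 RPKM in shNS. HOXA9 had 5 and 6 reads in shM14 against 7 and 4 in shNS, HOXA6 had 2 and 1 against 3 and 1, and HOXA7 had 4 and 1 against 3 and 2. At these counts a difference between the NB4 groups was not detectable for the 3 genes. In all, 4 of the 10 members had both NB4 shM14 libraries below both shNS libraries, against 37.2% of all genes with a read.

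In MM6 no member passed in limma on its 4 libraries, although most had lower values with shM14. METTL14, the target of the hairpin, was itself called in MM6 in 3 of 14 alternative settings (log2 change -0.98 to -0.84). A change can therefore be missed in these 4 libraries. For 9 of 10 both shM14 libraries lay below both shNS libraries, against 24.8% of all genes with a read, and the exception was HOXA7, with 1.32 and 0.789 RPKM in shM14 against 1.27 and 1.62 RPKM in shNS. Among the 9 members tested by limma none passed the threshold, where 0.0757% of 11895 genes did. At an unadjusted p under 0.05 there were 3 members (HOXA3, HOXA9 and HOXA10) and 1779 genes. The median log2 change was -0.38 over the 9 members and -0.03 over all genes tested. All 9 changes were negative, as were 55.0% of those of all genes. Of the 9, HOXA3 reached 1 RPKM in the shNS libraries alone, so the filter fixed the direction of its change. Its test and its place in these counts therefore give no support for a fall. In the authors' deposited table HOXA10 was called in MM6 and the other 9 members were not, where 3.28% of all genes were.

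HOXA9 had 1.65 and 2.17 RPKM in MM6 shM14 against 4.69 and 2.93 RPKM in MM6 shNS. Its mean was 49.8% lower, but the control libraries were far apart and the change did not pass (-0.71, 95% interval -1.26 to -0.15, adjusted p = 0.24). MEIS1 had 5.64 and 7.46 RPKM in shM14 against 8.60 and 8.85 RPKM in shNS (-0.38, interval -0.79 to 0.04, adjusted p = 0.37). PBX3 had 43.1 and 58.1 RPKM in shM14 against 59.7 and 71.4 RPKM in shNS (-0.38, interval -0.87 to 0.11, adjusted p = 0.45). The intervals of MEIS1 and PBX3 include 0, and that of HOXA9 does not.

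HOXA3 had 0.847 and 0.964 RPKM in MM6 shM14 against 1.93 and 1.58 RPKM in MM6 shNS (-0.53, interval -0.88 to -0.18, adjusted p = 0.19). Since it passed the filter only through these shNS libraries, the interval is no evidence of a fall. HOXA4 was too low for the filter in MM6, with 0.527 and 0.448 RPKM in shM14 against 0.971 and 0.977 RPKM in shNS. HOXA5 had 3.55 and 2.62 RPKM in shM14 against 5.93 and 3.64 RPKM in shNS, and its highest shM14 library came close to its lowest shNS library. The log2 change of HOXA5 was -0.48 (adjusted p = 0.43). HOXA6 had 1.88 and 1.29 RPKM in shM14 against 2.62 and 2.06 RPKM in shNS (-0.37, adjusted p = 0.41), and HOXA11 had 2.35 and 3.03 RPKM in shM14 against 3.50 and 4.01 RPKM in shNS (-0.37, adjusted p = 0.36). HOXA7 had a log2 change of -0.26 (adjusted p = 0.60).

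With the 8 libraries fitted together and the line as a term, all 10 members were tested. All 10 changes were negative, as were 53.7% of those of all genes, with a median of -0.27 against -0.02 over 12804 genes. HOXA5, HOXA6, HOXA7, HOXA9 and MEIS1 passed the filter only through MM6. In NB4 the means of HOXA4 and MEIS1 were higher with shM14, and those of the other members were lower. HOXA10 and HOXA3 passed, 2 of 10 members, where 7.10% of all genes were lower and 11.9% changed. HOXA3 reached 1 RPKM in the 2 MM6 shNS libraries alone, so the filter admitted it only through a control group in which it was high. HOXA3 had a log2 change of -0.39 (SE 0.09, adjusted p = 0.028), and in the fit without the filter its adjusted p was 0.031. That call was lost without NB4 shM14 replicate 1 (adjusted p = 0.079), NB4 shM14 replicate 2 (adjusted p = 0.064), NB4 shNS replicate 2 (adjusted p = 0.086) or MM6 shM14 replicate 1 (adjusted p = 0.057), and HOXA3 missed the filter without either MM6 shNS library. On the log2(RPKM + 1) scale changes of genes near 1 RPKM are understated, and with a pseudocount of 0.1 the change of HOXA3 was -0.87 (adjusted p = 0.0097). The remaining members ran from -0.42 for HOXA5 (adjusted p = 0.088), -0.35 for HOXA9 (adjusted p = 0.21) and -0.32 for PBX3 (adjusted p = 0.090) to -0.13 for HOXA7 (adjusted p = 0.44).

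The change with shM14 was also compared between the lines. For the MM6 change minus the NB4 change, 0 of 10 members passed in limma, where 2.92% of genes did, and 2 members had an unadjusted p under 0.05. These were HOXA4 (-0.53, 95% interval -0.91 to -0.15, adjusted p = 0.14) and HOXA9 (-0.70, interval -1.30 to -0.10, adjusted p = 0.19). MEIS1 (-0.40, interval -0.80 to 0.01, adjusted p = 0.26) did not pass either, but passed without MM6 shM14 replicate 2 (-0.57, adjusted p = 0.042). HOXA11 (-0.30, interval -0.68 to 0.09) did not pass, and PBX3 had a difference of -0.11 (interval -0.63 to 0.41). For HOXA9, at 0.0675 to 0.145 RPKM in NB4, the pseudocount of 1 leaves hardly any room for a change there. To a lesser degree the same limit holds for MEIS1 in NB4 (0.295 to 0.371 RPKM) and for HOXA4 in MM6 (0.448 to 0.977 RPKM).

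Genes beyond HOXA11, toward the HOTTIP end of the cluster, were also measured. Of all genes tested 25.2% were lower in NB4 and 7.10% over both lines. HOXA13 fell in NB4, with 3.78 and 4.31 RPKM in shM14 against 5.83 and 6.10 RPKM in shNS (log2 change -0.47, adjusted p = 0.0052). In MM6 its libraries overlapped, with 0.390 and 1.13 RPKM in shM14 against 0.985 and 1.83 RPKM in shNS. HOXA11-AS, the antisense transcript beside HOXA11, had 0.996 and 1.28 RPKM in MM6 shM14 against 1.98 and 1.86 RPKM in MM6 shNS, and 2.56 and 2.29 RPKM in NB4 shM14 against 3.45 and 3.63 RPKM in NB4 shNS. It fell in NB4 (-0.41, adjusted p = 0.0054) and over both lines (-0.43, adjusted p = 0.010). HOTTIP, known to hold the WDR5 and KMT2A complex at the HOXA10 to HOXA13 end, had 0.0977 and 0.166 RPKM in MM6 shM14 against 0.270 and 0.321 RPKM in MM6 shNS, and 0.850 and 0.950 RPKM in NB4 shM14 against 1.89 and 1.82 RPKM in NB4 shNS. HOTTIP had a log2 change of -0.59 in NB4 (adjusted p = 0.0013) and of -0.39 over both lines (adjusted p = 0.032), but it passed the filter only through the NB4 shNS libraries, where it was high. In the fits without the filter its adjusted p was 0.0034 in NB4 and 0.036 over both lines. HOXA11, which lies between these genes and HOXA10, did not pass in any of the 3 fits.

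**Figure D4:**
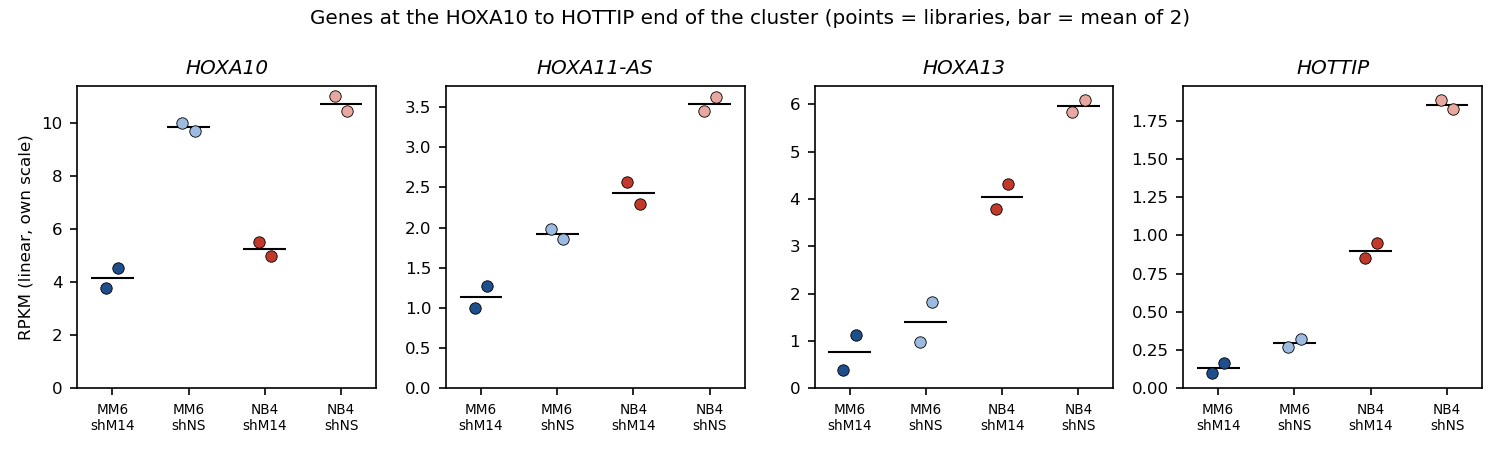
RPKM (linear axis from 0, a scale of its own in each panel) of HOXA10, HOXA11-AS, HOXA13 and HOTTIP in each library, with a bar at the mean of 2. The shM14 libraries lie below the shNS libraries of the same line for each gene except HOXA13 in MM6, where 1.13 RPKM in shM14 is above 0.985 RPKM in shNS.

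At the other end of the cluster HOTAIRM1, a noncoding RNA that is induced in granulocyte maturation, had 4.69 and 4.67 RPKM in NB4 shM14 against 4.75 and 4.35 RPKM in NB4 shNS. It did not pass in NB4, MM6 or both lines. In MM6 HOTAIRM1 had 4.57 and 2.67 RPKM in shM14 against 3.18 and 2.21 RPKM in shNS. HOXA2, HOXA-AS2, HOXA-AS3 and HOXA10-AS were below the filter in both lines. HOXA10-AS, which overlaps HOXA10, had 0.453 and 1.15 RPKM in MM6 shM14 against 0.687 and 0.496 RPKM in MM6 shNS, and 0.154 and 0.174 RPKM in NB4 shM14 against 0.184 and 0.0299 RPKM in NB4 shNS.

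The other HOX clusters gave few readable genes. HOXC10 was at 0 RPKM in all 4 MM6 libraries, and in NB4 it fell, with 3.81 and 3.37 RPKM in shM14 against 5.15 and 5.51 RPKM in shNS (log2 change -0.46, adjusted p = 0.0052). HOXB9, also at 0 in MM6, had 0.410 and 0.686 RPKM in NB4 shM14 against 1.57 and 1.40 RPKM in NB4 shNS, and it passed the filter only through these shNS libraries, so no test of it is given. HOXD13, a gene of limb development, had 18.5 and 19.4 RPKM in NB4 shM14 against 21.1 and 20.0 RPKM in NB4 shNS and did not pass (-0.11). Of 3 HOXC genes tested in NB4 only HOXC10 passed, where 47.4% of all genes changed and 25.2% were lower. HOXC6 lay higher in NB4, with 1.41 and 1.28 RPKM in shM14 against 1.15 and 1.13 RPKM in shNS, and did not pass.

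Among 8 other TALE genes tested in NB4, the class of MEIS1 and PBX3, 4 fell and none rose, where 47.4% of all genes changed and 25.2% were lower. IRX5 changed by -0.53 (adjusted p = 0.0015), IRX3 by -0.53, TGIF1 by -0.29 and TGIF2 by -0.25. IRX3, a gene switched on in many acute leukaemias, had 5.66 and 13.5 RPKM in MM6 shM14 against 18.7 and 23.6 RPKM in MM6 shNS, and 23.8 and 22.4 RPKM in NB4 shM14 against 32.4 and 35.1 RPKM in NB4 shNS. Over both lines 1 of the 8 passed, IRX5 (-0.55, adjusted p = 0.019), where 11.9% of all genes did. The median over the list was -0.20 in NB4, where that of all genes was -0.01. MEIS2, the closest relative of MEIS1, did not pass in either line.

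KMT2A and its partners keep HOXA genes active. Of 18 such genes tested in NB4, 1 rose and 5 fell, beside 47.4% of all genes changed, with a median of -0.01, where that of all genes was also -0.01. MLLT3, a member of the elongation complex that reads acetylated histones and the fusion partner in MM6, changed by -0.68 in NB4 (adjusted p = 0.00080), MLLT6 by -0.33, ASH2L by -0.35 and AFF1 by -0.36. These 4 were also the 4 of 18 that passed over both lines, where 7.10% of all genes were lower, and all 4 were lower (ASH2L -0.38, adjusted p = 0.014). MLLT3 reads in MM6 can come from the fusion transcript and from the normal gene, and the table does not part them. KMT2A itself had 7.30 and 7.95 RPKM in MM6 shM14 against 8.14 and 7.26 RPKM in MM6 shNS and 19.7 and 20.2 RPKM in NB4 shM14 against 18.7 and 19.1 RPKM in NB4 shNS, and did not pass. None of the 18 passed in MM6, where only 0.0757% of all genes did.

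Polycomb genes keep HOX genes silent. The list counted here also holds KDM6A, KDM6B and CTCF, which are not Polycomb genes. In NB4 4 of 18 rose and 7 fell, beside 47.4% of all genes changed, among them EZH2, the methyltransferase of the repressive complex (0.21, adjusted p = 0.017), and JARID2 (0.28) upward, and KDM6B (-0.50, adjusted p = 0.0021), an enzyme that removes the repressive mark, EZH1 (-0.35) and MTF2 (-0.29) downward. Over both lines 4 of 19 fell, namely RNF2 (-0.41, adjusted p = 0.018), MTF2 (-0.31), CBX8 (-0.38) and RING1 (-0.22), and none rose, beside 11.9% of all genes changed. In MM6 none of 19 passed, where only 0.0757% of all genes did.

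Genes described in leukaemia as downstream of HOXA9 and MEIS1 went both ways. In NB4 7 of 17 rose and 8 fell, where 47.4% of all genes changed, and over both lines 2 rose and 3 fell, where 11.9% did. FLT3, the receptor kinase most often named as a HOXA9 and MEIS1 target, had 642 and 771 RPKM in MM6 shM14 against 1104 and 1154 RPKM in MM6 shNS, and 3.35 and 3.41 RPKM in NB4 shM14 against 5.74 and 5.56 RPKM in NB4 shNS. FLT3 fell over both lines (-0.64, adjusted p = 0.0038), as did SYK, a kinase of signalling downstream of integrins and receptors (-0.56, adjusted p = 0.0096), and CDK6, which drives entry into the cell cycle (-0.46, adjusted p = 0.027). TRIB2 (0.53, adjusted p = 0.0038) and LMO2 (0.44, adjusted p = 0.017), a partner of blood transcription complexes, rose. The list median was -0.16 over both lines and -0.02 over all genes. Of 11 nuclear partners of homeodomain proteins, SPI1 (0.37, adjusted p = 0.037) and the acetyltransferase CREBBP (0.22, adjusted p = 0.049) rose over both lines and none fell.

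Maturation markers were read in the same libraries. The summed level of the 10 monocyte markers was 8649 to 14945 RPKM in MM6 shM14 against 6222 to 9603 RPKM in MM6 shNS and 235 to 236 RPKM in NB4 shM14 against 123 to 136 RPKM in NB4 shNS. In MM6 these sums overlapped between the groups and were mostly LYZ (14301 and 8164 RPKM in shM14 against 9206 and 5836 RPKM in shNS). Within MM6 limma called 0 of 9 monocyte and 0 of 7 promyelocyte markers tested, where 0.0757% of all genes were called. An unadjusted p under 0.05 was found for 6 markers of each list and for 1779 of 11895 genes. CX3CR1, one of the monocyte markers tested, had 2.42 and 3.37 RPKM in MM6 shM14 against 0.275 and 0.315 RPKM in MM6 shNS. It passed the filter only through shM14, so the direction of its change was fixed and its test gives no support for a rise. In NB4 4 of 6 monocyte markers rose, of which CD36 passed the filter only through shM14, and 1 of 7 promyelocyte markers rose and 5 fell. Among all genes tested in NB4 47.4% changed and 25.2% were lower. Of the monocyte markers 5 of 10 tested rose over both lines and none fell, where 11.9% of all genes changed. The 10 tested include CX3CR1, which again passed the filter only through MM6 shM14. Among the 5 were CD36 (2.44), CD14 (1.25) and CYBB (1.17). For the 7 promyelocyte markers the summed level was 4717 to 5123 RPKM in MM6 shM14 against 4584 to 4761 RPKM in MM6 shNS and 2385 to 2428 RPKM in NB4 shM14 against 2679 to 2789 RPKM in NB4 shNS. Over both lines 1 of these 7 rose, PRTN3 (0.93), and 4 fell, among them CTSG (-2.30), where 7.10% of all genes were lower. The part of these markers in the change of HOXA10 was not tested.

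Genes with the most similar profiles over the 8 libraries were sought among 12804 genes, as the smallest root-mean-square difference of log2(RPKM + 1) after centring. For HOXA10 these were TMEM116 (0.06), INIP (0.11) and SNX5 (0.11). TMEM116 averaged 3.07 RPKM in MM6 shM14, 8.18 RPKM in MM6 shNS, 3.86 RPKM in NB4 shM14 and 8.69 RPKM in NB4 shNS. SNX5, a sorting nexin of the endosome, averaged 27.9 RPKM in MM6 shM14, 53.1 RPKM in MM6 shNS, 30.8 RPKM in NB4 shM14 and 54.1 RPKM in NB4 shNS. HOXA9 was most like GLRB (0.12), SCUBE1 (0.13) and TCTEX1D1 (0.13), all at or near 0 in NB4. MEIS1 was most like YIF1B (0.05), DENND2D (0.07) and LOC100289656 (0.09), and PBX3 most like AZU1 (0.10), DNAJA4 (0.12) and PRLR (0.16). The measure rests on levels in a pair of cell lines and follows the gap between them for HOXA9, MEIS1 and PBX3.

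Sequence features were also counted. GGACT, one form of the motif at which m6A is written, occurred 2 times in the 2541 bases of the main HOXA10 transcript (0.787 per kb), 3 times in HOXA6 (3.03 per kb, the highest of the members), 1 time in HOXA9 (0.485 per kb) and not at all in PBX3. Over 19669 genes the median was 0.939 per kb, and 87.5% had the motif. In RefSeq promoter windows on GRCh38.p14, from 250 bases before to 50 after a start, 9 of the members had 16 windows in all, with none for HOXA5. On both strands TGATNNAT, a site of PBX and HOX pairs, was in none of the 16 and in 7.40% of 35116 windows of all genes. TGACAG, a MEIS site, was in 1 window each of HOXA4 and PBX3 and in 15.8% of all windows. These are letter matches in the reference and not sites of binding or of methylation.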

How the data were processed

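Per the labels' protocols, poly(A) RNA was purified from 100 ng of total RNA, made into libraries with a directional kit and sequenced in single-end reads of 50 bp. Which aligner, read counter, genome build, counting strand and test the authors used is not given in the sources. The authors deposited 1 table per line. The deposited RPKM values per library were recognised as such from the values, since the headers name no unit. The signal columns are the authors' group means of reads divided by size factors. The ratio column holds the fold change, shM14 over shNS, that the authors deposited. Per the file headers the log2 column gives its logarithm. Raw and adjusted p-values from the authors' test complete the table.

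The members and gene lists were chosen with earlier results of these data known. Log2(RPKM + 1) of genes with at least 1 RPKM in at least 2 libraries was fitted with limma 3.58.1 (R 4.3.3), with Benjamini-Hochberg adjustment over all genes and a threshold of 0.05, in 5 comparisons: within each line, both lines with the line as a term, their interaction, and MM6 shNS minus NB4 shNS. The tables were made separately, and RPKM is scaled within a library, so levels across lines rest on that scaling. RPKM and group means resolved into whole reads for 100% of values (tolerance 0.01 reads). These served for depth, for voom and for read numbers. Read numbers limit precision by counting error only. The fits were tested on simulated data. Named are all members, HOXA-cluster genes, up to 4 genes of a list with the smallest p, and the 3 genes most like a member. Some genes named from the lists were chosen after their values were seen. Of 123 list genes 95 are listed in the files, and the rest were not analysed here. Sequences came from GENCODE and RefSeq. A cluster gene and some sequences are not reported here. Python 3.11.15, pandas 2.3.3 and matplotlib 3.10.9 made the summaries and figures. Alternatives were another pseudocount, other filters, other scaling, voom, a variance trend, a replicate block, all libraries together and leaving out each library. In MM6 and NB4 the replicate numbers are not stated to mark pairs.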

Additional observations from a re-analysis of the deposited data

Results flagged for a closer look

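The change with shM14 differed between the lines for CCNA1 and CEBPE, both on the list of genes described as downstream of HOXA9 and MEIS1, by the test of the interaction in limma. Of that list 17 genes were tested, and no other gene on any of the 10 lists passed, where 2.92% of 12804 genes did. CCNA1, a cyclin of meiosis and of some leukaemias, had 7.48 and 9.84 RPKM in MM6 shM14 against 11.6 and 15.5 RPKM in MM6 shNS, and 21.1 and 21.9 RPKM in NB4 shM14 against 11.2 and 9.85 RPKM in NB4 shNS. Its MM6 change minus its NB4 change was -1.56 (adjusted p = 0.028). CEBPE, a factor of late granulocyte maturation, had 1.34 and 1.08 RPKM in MM6 shM14 against 0.271 and 0.496 RPKM in MM6 shNS, and 14.1 and 14.0 RPKM in NB4 shM14 against 16.2 and 19.1 RPKM in NB4 shNS. Its difference was 0.98 (adjusted p = 0.036). In both genes every library of 1 line moved the opposite way to those of the other.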

How the results depend on the processing

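Counts that moved are given here by setting, and the cause of each move was not tested. In NB4, where 5460 genes, 2 members and 46 list genes passed, a filter of 5 RPKM called 1 member, since PBX3 was no longer tested. Fitting all 8 libraries gave 1658 genes, 1 member and 12 list genes in NB4, with a replicate block 3120 genes and 23 list genes, and voom with no filter, added after the data were seen, 4 members. In MM6, where 9 genes and no member passed, there were 0 genes in limma without the filter (with it, 1779 had an unadjusted p under 0.05), 4 at 5 RPKM, 3 with median-of-ratios scaling and 39 with voom. With the replicate number as a block MM6 gave 1405 genes, 3 members (HOXA3, HOXA5, HOXA10) and 14 list genes. All 8 libraries gave 1311 genes, 2 members and 13 list genes in MM6, with a block 2752, 8 and 26, and voom with no filter 124 genes, 1 member (HOXA10) and 1 list gene. Over both lines 1 member passed at 5 RPKM, and the block gave 4 (HOXA3, HOXA5, HOXA10, PBX3). For the interaction, where 374 genes, no member and 2 list genes passed, a pseudocount of 0.1 gave 203 genes and 1 list gene, voom 207 and 1, and the block 1143 genes, 1 member (HOXA4) and 8 list genes. Between controls 2 members passed at 5 RPKM.

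The labels state no pairing. Replicate differences correlated at 0.70 between shM14 and shNS in MM6 and at 0.08 in NB4, with 2 pairs each. The block changed no other count of members.

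Leaving out a library leaves 1 sample in its group, which is then assumed to vary like the others. This gave 3049 to 4637 genes, 1 to 2 members and 31 to 41 list genes in NB4, and 5 to 23 genes and no member in MM6. Over both lines it gave 496 to 1926 genes, 1 to 3 members and 4 to 21 list genes. For the interaction it gave 5 to 742 genes, 0 to 1 members and 0 to 5 list genes, and between controls 5569 to 8967 genes, 2 to 7 members and 32 to 70 list genes.

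HOXA10 was called in all 14 alternatives in NB4 (-1.03 to -0.85) and all 15 over both lines (-1.14 to -0.93), and in 4 of 14 in MM6 (-1.25 to -0.97, adjusted p = 0.0029 to 0.21). Direction turned only in the interaction, for HOXA5 (0.41 with a pseudocount of 0.1, 0.69 with voom, 0.17 without MM6 shNS replicate 1, 0.04 without MM6 shM14 replicate 2, range over left-out libraries -0.41 to 0.17), HOXA3 (0.27 with voom) and PBX3 (0.10 without MM6 shM14 replicate 1, 0.02 without MM6 shNS replicate 2, range -0.32 to 0.10). Median-of-ratios scaling turned no direction. In NB4 the reads of HOXA6, HOXA7 and HOXA9 limit what could be seen.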
